A study of Caenorhabditis elegans with 2 samples.

Results

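The windows described here belong to the snoRNA genes of Caenorhabditis elegans. Every gene of biotype snoRNA on the 6 nuclear chromosomes of the Ensembl annotation of WBcel235 was taken, with a window from 1000 bp upstream to 200 bp downstream of its start. This gave 346 windows out of 46890 gene windows of all classes. The study mapped where the protein B0019.2, which RefSeq annotates as an SPK domain-containing protein, was found on chromatin. Whole young adult worms, aged 63.5 h after synchronisation as starved L1 larvae, carried the CRISPR insertion B0019.2::TY1::EGFP::3xFLAG in strain RW12288, and a GFP antibody was used to precipitate chromatin sonicated to 200 to 800 bp. There were 2 biological replicates of this 1 group, all of the same strain, and no untagged or input library was analysed here. Peaks are therefore averages over all tissues of the worm, and nothing measures how much of the signal would be found without the tag.

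Small nucleolar RNAs guide the chemical modification of ribosomal and spliceosomal RNA. C/D box snoRNAs carry a C box near their start and a D box near their end and direct 2′-O-methylation, whereas H/ACA snoRNAs end in an ACA tail and direct pseudouridylation. Many lie in introns of protein-coding host genes and are cut out of the spliced intron, and others are transcribed from promoters of their own. In tRNA genes the promoter lies inside the transcribed part as an A box and a B box, which the factor TFIIIC binds for RNA polymerase III. Some snoRNA genes of C. elegans are also transcribed by this polymerase.

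The sequences upstream of called snoRNA genes are shown first because many of them shared the letters marked. A gene was called when the highest point of a peak, the summit, of the deposited list of 900 peaks from both libraries lay in its window. The 5 stretches below, with both tRNA-like boxes, are the 120 bases before the gene start on the gene's own strand, read from the RefSeq WBcel235 (ce11) genome. Capitals mark the letters TGGCNNAG, used here for the A box, and GTTCNANNC, used for the B box; the letters do not overlap each other.
W03C9.9: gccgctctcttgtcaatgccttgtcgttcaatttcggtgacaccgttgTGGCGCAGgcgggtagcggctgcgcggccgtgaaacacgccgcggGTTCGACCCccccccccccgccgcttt
T03F7.8: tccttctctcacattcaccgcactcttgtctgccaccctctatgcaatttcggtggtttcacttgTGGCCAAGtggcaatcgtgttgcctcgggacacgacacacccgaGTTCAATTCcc
F32E10.10: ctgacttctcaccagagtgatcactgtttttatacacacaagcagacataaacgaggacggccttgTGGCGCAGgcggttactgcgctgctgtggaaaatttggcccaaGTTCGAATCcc
C04G6.12: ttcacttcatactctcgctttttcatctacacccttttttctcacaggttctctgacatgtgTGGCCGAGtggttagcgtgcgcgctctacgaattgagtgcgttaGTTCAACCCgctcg
T24H7.6: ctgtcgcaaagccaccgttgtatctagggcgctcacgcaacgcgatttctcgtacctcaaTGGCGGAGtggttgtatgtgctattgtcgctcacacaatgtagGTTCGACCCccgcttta
W03C9.9 lies outside other genes at chrII:11960778-11960897, plus strand, T03F7.8 (chrV:11314138-11314257, plus strand) and C04G6.12 (chrII:5105232-5105351, minus strand) lie inside a protein-coding gene on the opposite strand, F32E10.10 (chrIV:7574002-7574121, plus strand) lies outside other genes and T24H7.6 (chrII:6248597-6248716, plus strand) lies in an intron of T24H7.2. The coordinates are those of the printed stretch.

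A further set of called genes had none of these boxes and carried a CG-rich motif at nearly the same distance from the start. Capitals mark the letters TGTCNGNNG in the 120 bases before the start of 5 of them.
T26A8.6: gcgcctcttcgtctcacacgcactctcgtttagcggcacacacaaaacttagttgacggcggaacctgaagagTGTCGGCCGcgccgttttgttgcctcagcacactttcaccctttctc
Y53F4B.47: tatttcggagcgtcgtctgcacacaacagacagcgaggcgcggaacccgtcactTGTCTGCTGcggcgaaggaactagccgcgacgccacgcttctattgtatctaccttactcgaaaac
C16D9.11: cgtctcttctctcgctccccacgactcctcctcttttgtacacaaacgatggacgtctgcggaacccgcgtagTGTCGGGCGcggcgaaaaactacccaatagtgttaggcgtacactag
Y55F3BR.9: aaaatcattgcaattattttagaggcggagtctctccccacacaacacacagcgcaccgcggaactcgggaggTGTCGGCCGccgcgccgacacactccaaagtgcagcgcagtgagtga
T06D8.11: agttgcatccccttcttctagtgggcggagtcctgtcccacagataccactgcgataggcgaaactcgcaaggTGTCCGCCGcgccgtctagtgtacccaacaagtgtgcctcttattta
T26A8.6 (chrIV:8428740-8428859, minus strand) and Y53F4B.47 (chrII:15025894-15026013, minus strand) lie outside other genes, Y55F3BR.9 (chrIV:867134-867253, minus strand) lies inside a protein-coding gene on the opposite strand, and C16D9.11 (chrV:8228970-8229089, minus strand) and T06D8.11 (chrII:11224062-11224181, plus strand) lie in introns of rol-3 and plpr-1. Called genes with none of the 3 motifs upstream on their own strand are shown by ZK994.7 (chrV:8500459-8500578, plus strand), in an intron of pxn-1, and K07C10.2 (chrII:11167097-11167216, plus strand), inside a non-coding gene. These stretches have no capitals.
ZK994.7: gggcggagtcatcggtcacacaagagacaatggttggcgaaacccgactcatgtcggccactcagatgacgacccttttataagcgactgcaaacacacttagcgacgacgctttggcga
K07C10.2: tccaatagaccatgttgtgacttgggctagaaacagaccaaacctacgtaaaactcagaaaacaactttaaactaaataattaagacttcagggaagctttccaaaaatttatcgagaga

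Of the 346 snoRNA genes, 69 had a summit of the 900-peak list in the window, a share of 19.9% (exact 95% binomial interval 15.9 to 24.5%). Over all 46890 genes the share was 2.75%, and over protein-coding genes it was 3.84%, with 766 of 19973. The share for tRNA genes was 18.8% (15.8 to 22.1%) and that for genes of biotype snRNA 17.1% (11.0 to 24.7%). Both intervals overlap that of the snoRNA genes. The 69 genes held 65 different summits, 7.22% of the 900, because neighbouring snoRNAs shared summits, and they are not independent of one another. Intervals cover counting error over genes only.

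In the longer ranked list of 55591 candidate peaks, most of which did not reach the authors' reproducibility threshold, 260 snoRNA windows (75.1%) held at least 1 summit. The share was 42.5% for all genes, 51.9% for protein-coding genes, 85.5% for tRNA genes and 64.3% for snRNA genes. Of the 260 snoRNA genes, 26.5% (21.3 to 32.3%) were called in the 900-peak list, beside 6.47% of all genes with a candidate in the window. The peaks called from replicate 1 alone, 524 in number, touched 46 snoRNA windows (13.3%, 9.9 to 17.3%) beside 1.64% of all genes. The 496 peaks of replicate 2 touched 42 (12.1%, 8.89 to 16.1%) beside 1.53% of all genes. In each of the 3 lists the share was therefore several times the background.

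**Figure D1:**
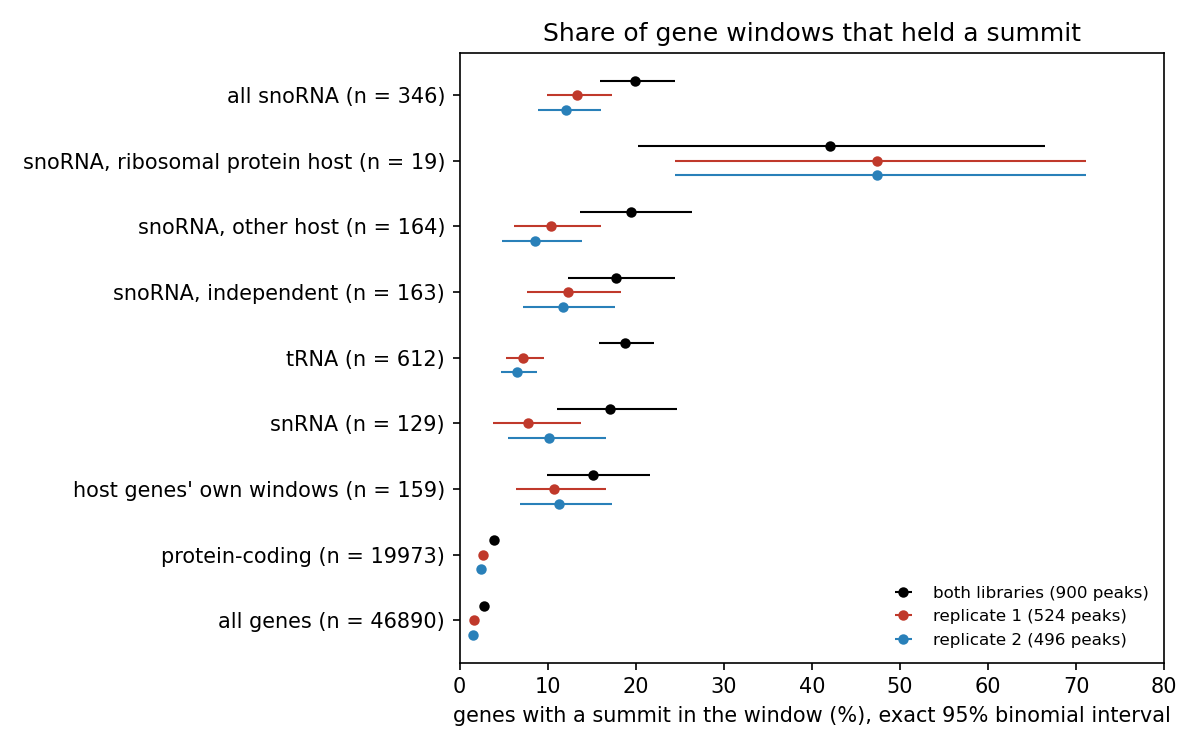
The share of genes with a summit in the window (%, horizontal axis) is shown for gene classes and for subsets of snoRNA genes (vertical axis), for the list of both libraries and the list of each replicate; points are shares and bars exact 95% binomial intervals. All snoRNA genes reached 19.9%, 13.3% and 12.1% in the 3 lists, beside 2.75%, 1.64% and 1.53% of all genes.

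The called genes were spread over the autosomes. Chromosome I held 17 called of 74 snoRNA genes, chromosome II 14 of 71, chromosome III 9 of 54, chromosome IV 16 of 59 and chromosome V 13 of 55. Over genes of all classes the shares called on these chromosomes were 6.4%, 4.38%, 6.74%, 1.4% and 2.1%, in the same order. Chromosome IV has 19704 annotated genes, beside 3859 to 7870 on the other chromosomes, which lowers its share and that over all genes. It held 178 of the 900 peaks, beside 199 on chromosome I and 190 on chromosome III. None of the 33 snoRNA genes on the X chromosome was called (exact 95% upper limit 10.6%), although 25 of them had a candidate. The X chromosome as a whole held 55 of the 900 peaks, and 91 of its 6022 genes (1.51%) were called, a share below the upper limit for its snoRNA genes. Of the 33, 4 had A or B box letters in the 150 bp upstream and 2 the CG-rich motif, as described further on.

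The summits of called genes gathered just before the snoRNA start. The median position of the nearest summit was 47 bp upstream, with quartiles of 96 and 11 bp upstream, and 58% of the genes had it in the 100 bp before the start, which make up 8.33% of the window. Protein-coding genes had a median 252 bp upstream and 13.7% in those 100 bp, tRNA genes had a median 12 bp downstream of the start and 23.5%, and snRNA genes had a median 8 bp upstream and 50%. Candidates in snoRNA windows that missed the 900-peak list were found there less often, in 15.1% of 350 pairs of gene and candidate. Each replicate alone gave a similar median, 54.5 bp upstream in replicate 1 and 57 bp upstream in replicate 2, but a wider spread. The outer quartiles were 220 and 225 bp upstream, and 54.3% and 47.6% of the genes had the summit in those 100 bp.

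The called genes were described as near or far, by a limit of 200 bp that was chosen after the positions had been seen. Near summits, within 200 bp of the start, belonged to 54 genes in 53 summits, 15.6% of the snoRNA genes beside 1.41% of all genes. The share was much like that of tRNA genes, 16.0%, and of snRNA genes, 17.1%. In 41 of the 54 the summit lay upstream of the start, and in 45 no gene of any class started closer to it. The remaining 15 genes had their nearest summit between 253 and 987 bp upstream, and all 15 were hosted, meaning that they lay wholly inside a protein-coding gene on the same strand.

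**Figure D2:**
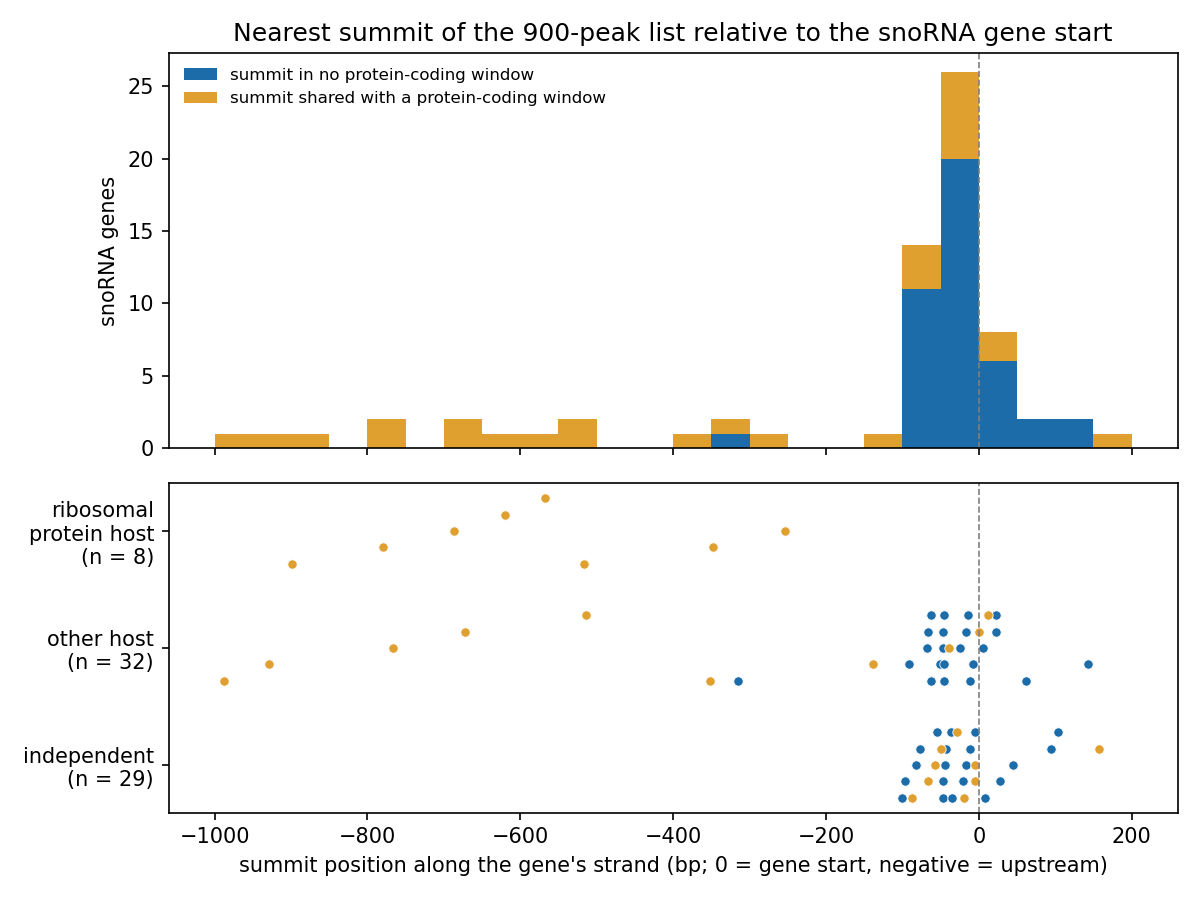
The position of the nearest summit relative to the snoRNA gene start (bp, horizontal axis) is shown as a histogram of genes in 50 bp steps (top) and as 1 point per called gene by location (bottom), coloured by whether the summit also lay in a protein-coding window. The 29 independent genes lay within 200 bp of the start, and the 8 genes in ribosomal protein hosts lay between 253 and 899 bp upstream.

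Independent snoRNA genes, those not hosted, numbered 163, of which 29 were called (17.8%, 12.3 to 24.5%). All 29 summits were near, with a median 35 bp upstream. By location, 18 of 113 genes outside other genes were called, 6 of 33 inside and opposite a protein-coding gene, 3 of 11 inside a non-coding gene and 2 of 6 that partly overlapped a gene. The shares of these small groups have wide intervals that overlap one another.

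The highest independent value belonged to F59C6.15, whose summit lay 57 bp upstream of the start with a signal value of 274 in the list of both libraries, 158 in replicate 1 and 118 in replicate 2. Signal values are the authors' own, on a scale not stated, and are compared only within a list, where the median over the 900 peaks was 95.7. That summit was shared with the windows of the protein-coding gene F59C6.18 and of the non-coding RNA gene F59C6.19. It ranked 36 of 900 and was the highest near summit of any snoRNA gene.

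Several independent genes had a summit in the window of no other gene at all. W03C9.9, with both boxes upstream, had a signal of 179, with 95.8 in replicate 1 and 92.2 in replicate 2, at 82 bp upstream. T26A8.6, with the CG-rich motif, had 167, with 77.2 and 84.4, at 55 bp upstream. F32E10.10, with both boxes, had 117, with 68.6 and 49.1, at 96 bp upstream. All 3 lay above the median of the list and were present in the list of each replicate. B0334.12, inside a protein-coding gene on the opposite strand, had a signal of 122, with 64.6 and 54.5, and a summit 94 bp downstream of the start, past the end of the gene. T04A8.17, also on the opposite strand, had 106 at 11 bp upstream and was matched in the list of replicate 2 alone, at 52.6.

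Other independent genes shared their summit with annotated non-coding RNA genes only. T03F7.8, with both boxes, had a signal of 174, with 72.2 and 96.6, at 77 bp upstream. Y23H5B.10 had 176, with 96.3 and 79.7, at 21 bp upstream, and a pseudogene window also held that summit. T19B4.8, inside the non-coding gene T19B4.9 and with both boxes, had 154, with 98.0 and 61.8, at 17 bp upstream. All 3 were in the lists of both replicates, with T03F7.8 at rank 200 of 524 in replicate 1 and T19B4.8 at rank 243 of 496 in replicate 2. K07C10.2, with none of the motifs upstream, had 149, with 67.1 and 81.7, at 103 bp downstream of the start, where the gene itself had already ended. Y55F3BR.9 had 105, with 58.7 and 57.3, at 28 bp downstream, and T27A3.9 had 112 at 35 bp upstream and was matched in replicate 1 alone, at 74.9. Of the independent genes whose summit a protein-coding window also held, Y53F4B.47 had 125 (65.8 and 57.4), at 5 bp upstream and shared with cmtr-1, and T02E1.9 had 112, matched in replicate 1 alone at 53.9 and shared with T02E1.2.

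Hosted snoRNA genes numbered 183, of which 143 overlapped no exon of the host, and 40 were called (21.9%, 16.1 to 28.6%). The interval overlaps that of the independent genes. The hosted genes divided into 25 near and 15 far, and the division followed the distance to the start of the host. Where the host start lay within 1000 bp of the snoRNA start, 3 of 58 genes had a near summit and 14 a far one. Where the host start was farther away, 22 of 125 had a near summit and 1 a far one. A far summit can lie in the host's window only if the host start is close, so these counts are partly set by the window.

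Near summits inside hosts mostly stood away from protein-coding starts. In 21 of the 25 genes the summit lay in no protein-coding window, and in 1, F39B2.14, it lay in the window of the host. Of the 25, 22 started farther than 1000 bp from the host start, and a window reaches only 200 bp downstream. The low count in host windows is therefore largely set by the window. ZK994.7, which starts 5690 bp from the start of pxn-1, the gene of a peroxidasin, had the highest signal of the 21 at 215, with 104 in replicate 1 and 109 in replicate 2. Its summit was 12 bp upstream of the snoRNA start and also fell in the window of a tRNA gene. C51F7.3 and C51F7.4, neighbours in frm-7 more than 1000 bp from its start, shared 1 summit with a signal of 191, with 85.5 and 103, which lay 47 bp upstream of the first and 62 bp downstream of the start of the second. These 2 genes cannot be told apart by that summit, and C51F7.3 had B box letters and C51F7.4 the CG-rich motif.

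Lower hosted near summits followed the same layout. Y37E3.20 in pcyt-2.1, 6082 bp from the host start, had 141, with 68.3 and 71.6, at 63 bp upstream. C10C6.8 in catp-8, 5060 bp from the host start, had 118, with 61.4 and 56, at 63 bp upstream. C16D9.11 in rol-3, 9440 bp from the host start, had 117, with 53.2 and 67.5, at 51 bp upstream. The summits of the last 2 lay in the window of no other gene. T06D8.11 in plpr-1 had 105 at 8 bp upstream, and C05D2.15 in madf-11 had 97.9 at 14 bp upstream, both present in each replicate's list. F11A10.9 in rbm-34, which had 100 at 24 bp upstream, was in neither replicate's list. F39B2.14 in tmem-107 lay only 61 bp from the host start, and its summit, with 155 (64.7 and 89.5), also lay in the window of the ribosomal protein gene rps-26.

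The far summits mostly lay in the windows of host genes. Several of them also lay in the window of a second protein-coding gene, such as that of mrps-6 for the summit in rpn-8, and cannot be given to the host alone. In 14 of the 15 genes the summit was in the host's own window, and the exception was F26D10.24 in hsp-1, the gene of a constitutive HSP70 chaperone, with 79.6 at 315 bp upstream. The highest belonged to K11H12.12 and K11H12.13, both in rpl-15, which shared 1 summit of 565, with 284 in replicate 1 and 279 in replicate 2, ranked 3 of 900. It lay 899 and 568 bp upstream of the snoRNAs, 353 bp upstream of the start of rpl-15 and in the window of K11H12.8. C06A1.9 in cdc-48.1, the gene of a AAA ATPase that unfolds ubiquitinated proteins, had 358, with 198 and 159, at 514 bp upstream.

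Ribosomal protein hosts, taken as hosts with symbols rpl-, rps- or rla- followed by a number, supplied 8 of the 15 far genes. A ribosomal protein gene under another symbol was counted among the other hosts, so the counts below hold for these symbols only. These hosts numbered 13 and held 19 snoRNAs, of which 8 were called (42.1%) in 5 hosts, and all 8 summits lay in the window of the host. None of the 19 had a summit within 200 bp of the snoRNA start (exact 95% upper limit 17.6%). The summit at rps-23, with 261 (127 and 142), lay 687 bp upstream of F28D1.13 and also in the window of dpm-3. The summit at rpl-7A, with 243 (125 and 121), lay 348 and 779 bp upstream of Y24D9A.9 and Y24D9A.10 and also in the window of set-21. The summit at rps-12, with 149 (78.0 and 72.9), lay 253 and 620 bp upstream of F54E7.10 and F54E7.11 and also in the window of ska-3. The summit at rpl-4, with 95.8, was matched in replicate 2 alone and also lay in the window of B0041.8. Counted by the genes' own windows, 5 of the 13 ribosomal protein hosts (38.5%, 13.9 to 68.4%) and 31 of 68 ribosomal protein genes that host no snoRNA (45.6%, 33.5 to 58.1%) were called. In the lists of replicates 1 and 2 the order was the other way round, with 38.5% and 46.2% of the hosts and 26.5% and 27.9% of the others. The intervals of the 2 groups overlap in each list.

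Host genes as a class had a summit in their own window in 24 of 159 cases (15.1%), beside 742 of 19814 (3.74%) of the other protein-coding genes. The 13 ribosomal protein hosts are among the 159. Among translation factor hosts, 1 of 3 was called, eef-1G, whose summit of 100.4 lay 987 bp upstream of F17C11.15 and also in the window of ctf-4.

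Genes of proteins that bind snoRNAs were looked up as well, and 6 of the 8 symbols were found in the annotation. Of the 6, 4 were called, beside 3.84% of all protein-coding genes, but only the summit at fib-1 had that gene's start as its nearest; those at the other 3 lay closer to the start of another gene. The window of fib-1, the methyltransferase of C/D box particles, held a summit of 103 at 103 bp upstream, and dkc-1, the pseudouridine synthase of H/ACA particles, one of 173 at 313 bp upstream. A summit of 88.6 lay in the window of nol-58, a core C/D box protein, and one of 139.7 in that of Y48A6B.3. The windows of nol-56 and nola-3 held candidates of 59.2 and 62.7 that did not reach the list.

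The upstream letters were tallied in the 150 bp before the start on the gene's own strand. The A box letters and the CG-rich letters were chosen after the upstream sequences of called genes had been read, so their counts describe these genes and support nothing further. B box letters were present in 16 of 54 near genes (29.6%), in 0 of 15 far genes, in 19 of 277 genes that were not called (6.86%) and in 2.17% of all genes. A box letters were also present in 16 of 54 near genes, in 0 of 15 far genes, in 19 of the 277 and in 1.51% of all genes. Both boxes together were present in 9 near genes (16.7%), in 4 of the 277 (1.44%) and in 0.0746% of all genes.

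The CG-rich letters were found in 15 of 54 near genes (27.8%), in 2 of 15 far genes, in 25 of the 277 (9.03%) and in 1.71% of all genes. No near gene had an A or B box together with the CG-rich letters in the 150 bp upstream. There, 23 near genes had a box, 15 had the CG-rich motif and 16 had none of these. Some of the 16 had such letters elsewhere. Within 50 bp of the summit, on either strand, K07C10.2 had CG-rich letters and B0334.12 had both boxes. Y23H5B.10, C05D2.15 and Y38F2AR.14 had B box letters there, and K02C4.8 had A box letters. Hosted and independent near genes carried the upstream letters alike. Of 25 hosted genes 10 had a box, and of 29 independent genes 13, while 7 and 8 had the CG-rich motif. The palindrome CACGTG, the core of an E box, was present in 1 of 54 near genes and in 2.26% of all genes. A match to letters is not a bound site, and a gene with no match may hold a variant of them.

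**Figure D3:**
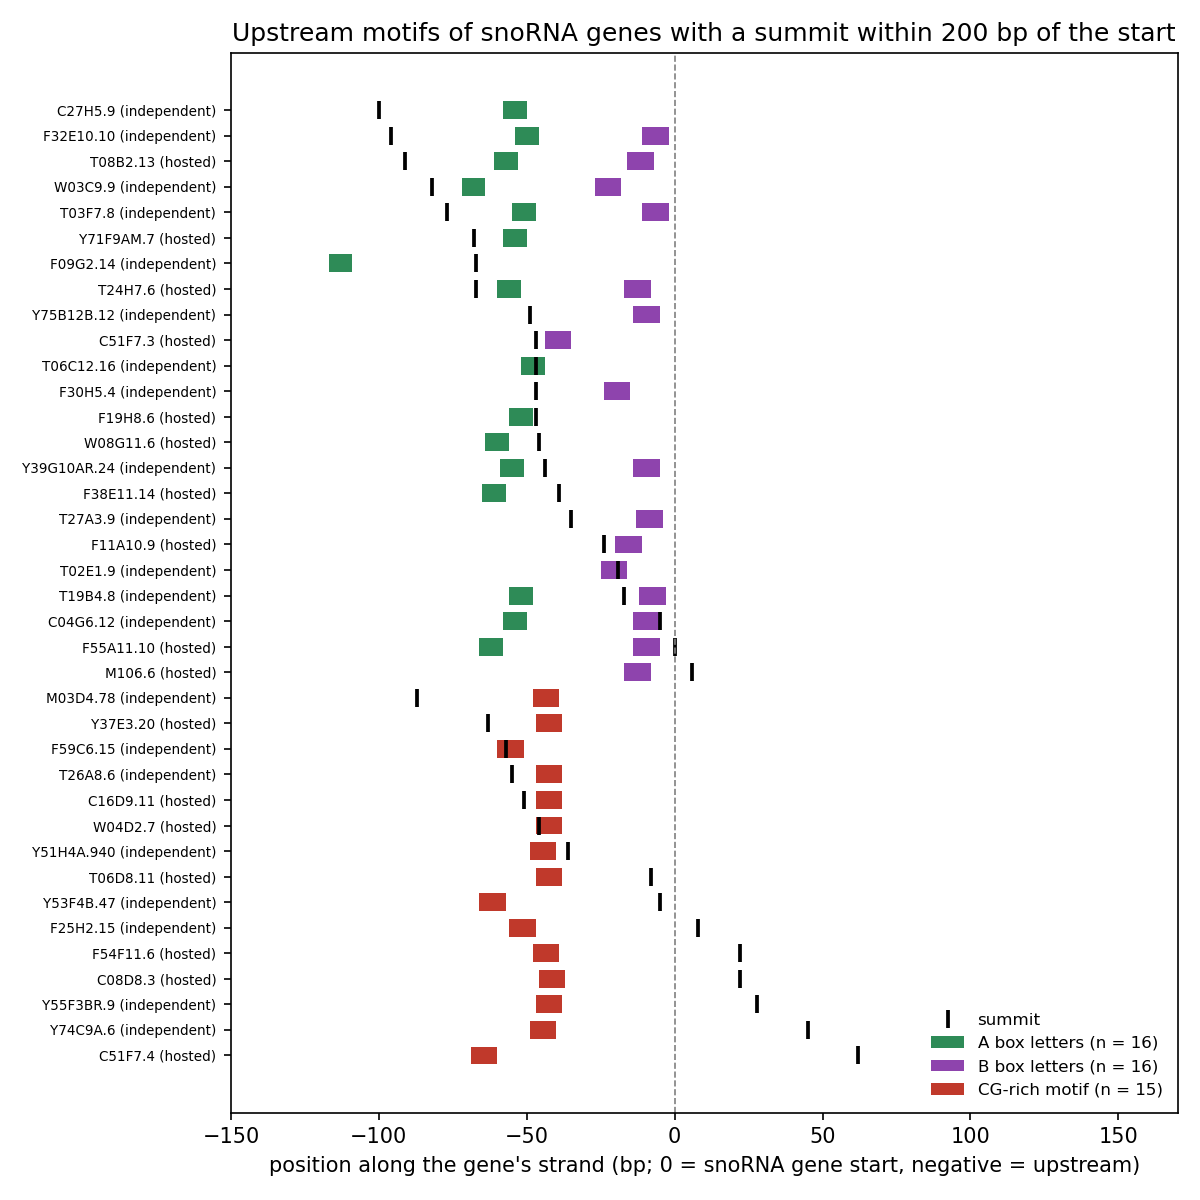
The first 150 bp upstream and the start of the 38 near genes with a motif are drawn to scale, 1 gene per row, with A box, B box and CG-rich letters as coloured bars and the summit as a black tick (bp from the gene start, horizontal axis). The CG-rich bars begin between 69 and 46 bp upstream and the B box bars between 44 and 11 bp upstream, whereas the summits scatter on both sides of them.

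The positions of the letters were more regular than those of the summits. Part of this regularity is built in, because the A box and CG-rich letters were picked from these same sequences. Where a stretch held several matches to the same letters, the one nearest the gene start was taken. The A box began at a median 58.5 bp upstream, with quartiles of 64.2 and 56 bp, and the B box at a median 15 bp upstream, with quartiles of 21.0 and 13.8 bp. In the 9 genes with both, the A box began 43 to 52 bp before the B box, with a median of 44 bp. The CG-rich motif began at a median 48 bp upstream, with quartiles of 52.5 and 47.0 bp. The summit lay between the start of the A box and the end of the B box in only 2 of the 9 genes. At W03C9.9 and F32E10.10, for example, it lay before both boxes.

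Counted over the letters instead, 13 snoRNA genes had both boxes, of which 9 had a near summit and the other 4, among them Y43F8C.22 and Y59E1B.14, a candidate. Of 57 genes with an A or B box, 23 had a near summit, of 42 with the CG-rich motif 15, and of 249 with none of them 16. Because A box and CG-rich letters were picked from the sequences of called genes, a higher share with the letters than without was built into these counts, and no difference is read from them.

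Signal differed little between the kinds of near gene. The median signal was 95.4 (quartiles 81.0 and 114) for the 23 genes with a box, 105 (94.1 and 133) for the 15 with the CG-rich motif and 97.3 (85.2 and 129) for the 16 with none. Neither these medians nor the replicate counts that follow were tested against one another. Windows of the 23 genes with a box held a summit of replicate 1 in 13 and of replicate 2 in 8, and those of the 15 with the CG-rich motif in 10 and 11.

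The same letters were tallied within 50 bp of the summits, on either strand, so that peaks could be compared with peaks. B box letters were found at 15 of 53 near summits (28.3%) and at 1 of 12 far summits. The share was 9.78% of all 900 peaks, 55.9% of the 93 peaks in tRNA windows, 2.69% of the 743 peaks in neither a snoRNA nor a tRNA window, and 4.39% of candidates outside the list. A box letters were found at 30.2% of the near summits, 14.0% of the tRNA peaks and 5.79% of those 743 peaks, and the CG-rich letters at 17.0%, 3.23% and 4.58%. The near summits thus lay between tRNA peaks and other peaks for the B box, and above both for the A box and CG-rich letters that had been picked from them. Base composition differed as well. The median GC share around the summit was 53.5% for near summits and 51.5% for both far summits and tRNA peaks. It was 45.5% for those 743 peaks, 47.5% for all 900 peaks and 40.6% for other candidates. In the 100 bp upstream of the gene start the median GC share was 55.0% for near genes, 45.0% for far genes and 42.0% for genes not called. The part of base composition in the counts of letters was not tested.

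A tRNA pseudogene was annotated before a few of the genes. RefSeq places a tRNA pseudogene on the same strand, in the stretch from 150 bp upstream to 20 bp downstream of the start, at 4 of the 346 snoRNA genes, and 3 of the 4, D1046.6, F19H8.6 and T08B2.13, had a near summit. All 3 are hosted, and none was in the list of either replicate. The remaining one, Y59E1B.14, had a candidate only.

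The called genes also differed in the letters of the snoRNA itself. The next 3 sequences are whole genes, 5′ to 3′ on their own strand, from the same genome. Capitals mark the C box letters TGATGA and the D box letters CTGA in W03C9.9 (chrII:11960898-11960959, plus strand) and Y55F3BR.9 (chrIV:867056-867133, minus strand), and the ACA tail of C10C6.8 (chrIV:11474059-11474191, minus strand).
W03C9.9: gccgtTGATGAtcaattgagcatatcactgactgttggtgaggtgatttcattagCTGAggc
Y55F3BR.9: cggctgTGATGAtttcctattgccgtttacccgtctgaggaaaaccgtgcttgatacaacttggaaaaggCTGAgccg
C10C6.8: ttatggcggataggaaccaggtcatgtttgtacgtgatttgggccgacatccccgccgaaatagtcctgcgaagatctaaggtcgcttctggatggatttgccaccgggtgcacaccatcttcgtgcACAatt
D box letters within the last 15 bases were present in 24 of 54 near genes (44.4%), 4 of 15 far genes (26.7%) and 17.7% of the 277 genes that were not called. C box letters within the first 15 bases were present in 7 near genes (13.0%), 2 far genes (13.3%) and 2.89% of those not called. An ACA exactly 3 bases from the end was present in 13 near genes (24.1%), 10 far genes (66.7%) and 12.6% of those not called. The near genes with letters of the D box were mostly those with a motif upstream, 13 of the 23 with a box and 10 of the 15 with the CG-rich motif, beside 1 of the 16 with none. The ACA tail went the other way, with 4 of 23, 0 of 15 and 9 of 16. Most annotated snoRNA genes matched neither set of letters, so these counts do not assign every gene to a class.

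A run of 4 T, where RNA polymerase III is known to stop, was looked for in the 30 bases after the gene end. TTTT was present there in 42 of 54 near genes (77.8%), 8 of 15 far genes (53.3%) and 48% of the 277 genes not called. It was present in 21 of the 23 near genes with an A or B box, in 11 of the 15 with the CG-rich motif and in 10 of the 16 with neither. The near genes with a box were short, with a median length of 75 bp, beside 119 bp for those with the CG-rich motif and 132 bp for those with neither. No RNA was measured here, so the polymerase that transcribes these genes was not tested.

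Both replicates were set beside the 65 summits by an overlap of at least 50% of either peak. Of the 65, 37 matched the list of replicate 1 and 34 that of replicate 2, 29 matched both (44.6%) and 23 matched neither (35.4%). Over all 900 peaks, 37.3% matched both and 36.6% neither, so summits in snoRNA windows matched about as often as the list as a whole. The 900 peaks were made from these same 2 libraries, so a match is not an independent second finding. Of the 53 near summits, 23 matched both lists, and of the 12 far ones, 6. With 1 exception, F25H2.15, the nearest peak of each called gene matched a candidate in the ranked list of both replicates. The second peak in the window of Y51H4A.940, with a signal of 6.66, matched a candidate in neither. The depth of the libraries is unknown, since the files give no counts, so a summit missing from a list cannot be read as absent from the worms.

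**Figure D4:**
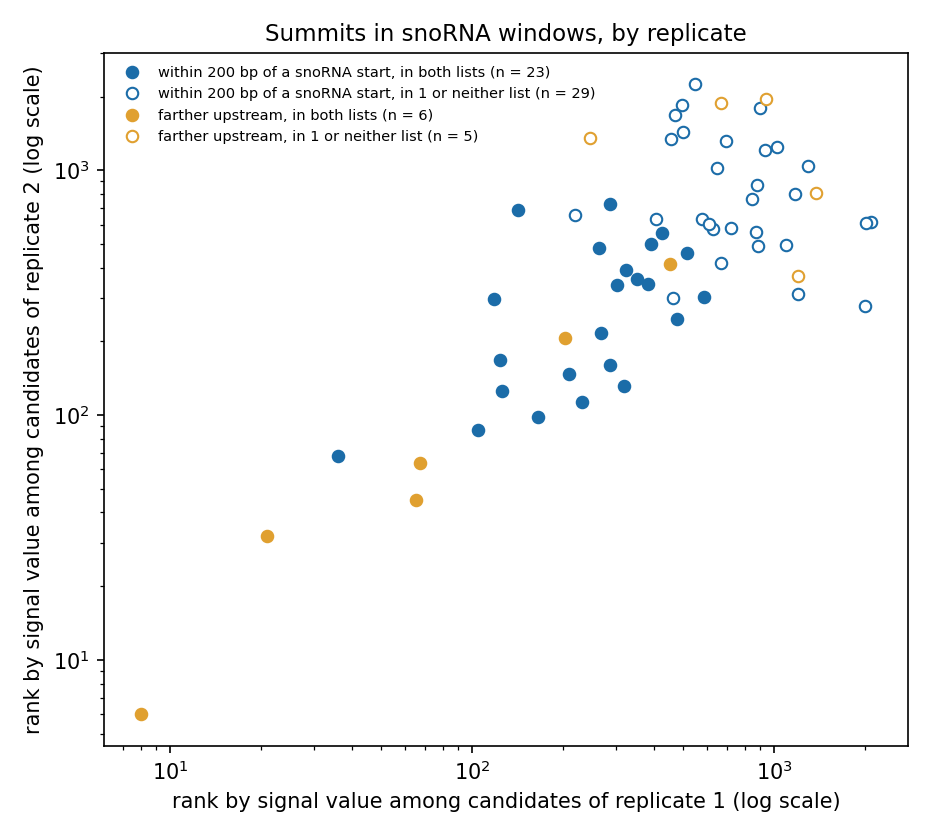
Each point is 1 of the summits in snoRNA windows that matched a candidate in both replicates, by its rank by signal value in replicate 1 (horizontal, log scale) and replicate 2 (vertical, log scale); colour shows near or far and filled points were in the thresholded lists of both. The summit at rpl-15 stood at rank 8 and 6, and near summits lay between rank 36 and rank 2240.

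The signal of the 65 summits was that of the list as a whole. Their median was 97.9, with quartiles of 82.7 and 131, beside 95.7, with quartiles of 77.2 and 131, for all 900. Near summits ranged from 64.0 to 274 with a median of 96.8. Far summits ranged from 6.66 to 565 with a median of 102, and the lowest value belongs to a second summit in the window of Y51H4A.940, whose nearest summit was near. Of the 65 summits, 37 were in the upper 450 of the list.

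The snoRNA genes just outside the list included the strongest candidate of all uncalled windows. The gene WBGene00220185, which lies outside other genes, had candidates with signals of 259.5 at 817 bp upstream and 78.9 at 48 bp upstream, and its CG-rich motif began 47 bp upstream. Both candidates had a −log10 IDR, the authors' measure of irreproducibility, of 5.0 and 2.5, at or above the 2.0 that was the lowest in the list, yet neither is among the 900 peaks. F12F6.11, with B box letters, had a candidate of 88.9 at 54 bp upstream and was present in the list of replicate 1. The others were hosted by ribosomal protein genes: F53G12.12 in rpl-7, with 81.7 at 605 bp upstream, and R151.11 and R151.12 in rpl-6, which shared a candidate of 79.5 at 468 and 874 bp upstream. In all, 9 snoRNA genes had a summit in a replicate's list without one among the 900, and 23 called genes had none in either replicate's list.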

How the data were processed

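GFP-tagged B0019.2 was immunoprecipitated with its chromatin in 2 biological replicates, and the peak lists made from them were used. The authors deposited ranked and thresholded lists per replicate and for both libraries, on ce11 per the readme texts deposited with them. Which aligner and peak caller made them is not given in the sources used here. Each peak carries a signal value on a scale the authors did not state, and the ranked list of both libraries a deposited −log10 of the irreproducible discovery rate, IDR. No counts are given, so the depth is unknown and its precision cannot be stated; whether replicates came from separate cultures is not given beyond their label as biological replicates, and no control library was analysed here.

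The summit of a peak, its start plus its summit offset, was assigned to every gene window of Ensembl release 115 (WBcel235) that held it. Hosted snoRNA genes lie wholly inside a protein-coding gene on the same strand. Letters were searched in the RefSeq WBcel235 genome. Shares carry exact (Clopper-Pearson) 95% intervals, and no significance test was run. Assignment was tested on simulated summits. Python 3.11.15, pandas 2.3.3, numpy 2.4.6, scipy 1.17.1 and matplotlib 3.10.9 were used.

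Members and lists were chosen with earlier results of these data known; the 200 bp limit and the A box and CG-rich letters were chosen after values or sequences had been seen. Genes named by rule were the 20 snoRNA genes with the highest signal whose summit lies in no protein-coding window, the 12 highest hosted and 12 highest independent genes, their hosts, and 5 uncalled genes with the highest candidates. C04G6.12, T24H7.6, F26D10.24, F25H2.15, Y51H4A.940, F17C11.15, Y38F2AR.14, K02C4.8, B0041.9's host rpl-4, the genes with tRNA pseudogenes and Y43F8C.22 were named after their values were seen. Alternatives tried were the other deposited list of both libraries, the upper part of the list, each replicate alone, other windows, the nearest start only, host strand and peak overlap.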

Additional observations from a re-analysis of the deposited data

How the results depend on the processing

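The 6 counts given as main, 69 called snoRNA genes, 65 summits, 40 hosted genes, 42 genes with a summit in no protein-coding window, 54 near genes and 23 near genes with an A or B box, were recomputed under 49 alternatives in all. Of these, 31 stayed within 1.5 times the main count and 18 did not. Keeping only the upper 450 peaks by signal gave 41, 37, 23, 22, 30 and 11. Using the peaks of 1 replicate alone gave 42 to 46, 38 to 41, 23 to 26, 24 to 25, 31 to 34 and 8 to 15. The fewest genes with a box, 8, came from the list without replicate 1, and the list without replicate 2 gave 15. These lists hold fewer peaks by construction. Giving each summit to its nearest gene start only left 20 hosted genes, where by construction a summit shared by windows counts for 1 gene. The near counts and the box counts were alternatives added after the data had been seen. No paired analysis was possible because there is 1 group. Signal values without counts, the unstated scale, the absence of a control library here and shared summits limit what a single window can show.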
